A study of Homo sapiens with 8 samples.

Results

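The genes described here were 10 cytokines, chemokines, receptors and signalling inhibitors: IL10, IL21R, IL6R, IL6ST, SOCS3, CCL5, CCR2, CXCL10, HGF and TNFRSF1B. They were followed through every probe set whose only gene symbol in the array annotation was one of the 10, which gave 30 of 54675 probe sets (10 of 19775 genes with a probe set of their own). IL10, CXCL10 and TNFRSF1B had 1 probe set each, and the other 7 genes had several. The genes were chosen on differences seen among these same arrays, by line and by treatment, though no record says which difference chose which gene. Their values therefore describe these arrays, and their p-values are not independent evidence.

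RNA came from 2 human multiple myeloma cell lines, RPMI-8226 and JJN3, on Affymetrix U133 Plus 2.0 arrays, with 8 arrays in all. Each line gave 4 cultures: without infection; with a lentivirus (LV) carrying a non-targeted (NT) shRNA; with one carrying an shRNA against XBP1; and with one carrying an shRNA against IRE1, whose gene is ERN1. All cells were grown in IMDM with serum and glutamine; infected cultures stood with virus and 8 µg/mL polybrene for 16 h, and harvest was at 96 h. The labels name 1 shRNA per target and 1 array per line and treatment, so the 2 lines are the only replicates of a treatment (n = 2); nothing in the labels speaks of further cultures, and p-values measure only the spread between these arrays.

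Cytokines are secreted proteins that act on cells carrying their receptors. IL-6, a growth factor for myeloma cells, binds the receptor chain IL6R, and the complex then engages the signalling chain IL6ST (gp130), which activates JAK kinases and STAT3; SOCS3, itself a STAT3 target, shuts this signal off. IL-10 also signals to STAT3, through IL10RA and IL10RB, and IL-21 through IL21R paired with IL2RG. CCL5 and CXCL10 attract leukocytes, through CCR1 among others and through CXCR3, CCR2 is the receptor of CCL2 and CCL7, HGF acts on the receptor kinase MET, and TNFRSF1B is one of the receptors of TNF. IRE1 is the sensor of endoplasmic reticulum stress that splices the mRNA of the transcription factor XBP1.

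Values are log2 units centred so that each probe set has a median of 0 over the 8 arrays. They compare arrays for 1 probe set and give no expression level, so no gene's level was set against another's and presence or absence could not be read. Levels as a percent or a fold assume base 2, which the notes do not state.

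The targeted genes were looked at first. XBP1 (200670_at) stood at 65.9% of its NT shRNA level in RPMI-8226 and at 45.6% in JJN3 when XBP1 was targeted, and at 64.7% and 16.8% when IRE1 was; neither difference passed the test over both lines (limma adjusted p = 0.36 and 0.21). ERN1 (235745_at) on the array labelled IRE1 shRNA was at 53.9% of the NT shRNA level in JJN3 but at 129.8% in RPMI-8226, so the knockdown does not show at this probe set in that line. On the arrays labelled XBP1 shRNA the same probe set was lower still, at 36.7% in RPMI-8226 and 42.9% in JJN3 (-1.33 ± 0.32 (SE), adjusted p = 0.0927). At 200670_at and 235745_at the targeted genes thus do not set the shRNAs apart in the way the labels name them. Every value below belongs to the arrays labelled XBP1 shRNA or IRE1 shRNA. Medians of the spiked poly-A control transcripts (24 probe sets) peaked with XBP1 shRNA, at 0.43 in RPMI-8226 and 0.19 in JJN3, against -0.04 to 0.25 and -0.17 to -0.05 on the other arrays. The median of the hybridisation controls (18 probe sets) was highest on the JJN3 IRE1 shRNA array, at 0.42, against -0.15 to 0.09 on the others. The part of either control in the differences between treatments was not tested. Of 8 plasma cell markers, 2 were higher and 4 lower in JJN3 without overlap between the lines. The summed markers of T and NK cells (8 of 9 measured) ran from 1.88 to 3.02 in RPMI-8226 and from -2.63 to -1.73 in JJN3, those of myeloid cells (6 of 8) from 0.62 to 1.01 and from -1.21 to 0.00032, and those of stromal cells (6 of 6) from 0.87 to 1.60 and from -1.76 to -0.62. Their part in the differences between lines was not tested, and centred values cannot show whether any of them was at 0.

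Promoters of the member genes were read from RefSeq (build GRCh38.p14). Each window is the 250 bases before the transcription start, 5′ to 3′ on the gene's own strand. The annotated starts gave 12 windows for 9 of the genes; CCL5 was not among them. CXCL10 (chr4:76023498-76023747, minus strand) and TNFRSF1B (chr1:12166741-12166990, plus strand) are shown because their values separated the XBP1 shRNA arrays from the IRE1 shRNA arrays, and IL10 (chr1:206770604-206770853, minus strand, 1 of its 3 windows) because it stood out on a single array. Capitals mark matches to the interferon-stimulated response element, spelled GAAA, any 2 bases and GAAA, and the NF-kB site (CXCL10), the response element on the other strand (TNFRSF1B) and the AP-1 site TGANTCA (IL10).
CXCL10: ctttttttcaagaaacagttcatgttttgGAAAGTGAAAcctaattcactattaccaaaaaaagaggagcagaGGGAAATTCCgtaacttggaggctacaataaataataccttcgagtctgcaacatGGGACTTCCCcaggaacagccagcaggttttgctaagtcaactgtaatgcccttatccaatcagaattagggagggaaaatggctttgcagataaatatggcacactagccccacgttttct
TNFRSF1B: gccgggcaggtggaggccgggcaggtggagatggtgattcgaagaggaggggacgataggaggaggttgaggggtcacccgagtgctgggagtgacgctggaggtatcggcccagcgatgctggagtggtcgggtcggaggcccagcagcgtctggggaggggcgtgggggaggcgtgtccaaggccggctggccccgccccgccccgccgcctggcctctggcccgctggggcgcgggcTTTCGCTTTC
IL10: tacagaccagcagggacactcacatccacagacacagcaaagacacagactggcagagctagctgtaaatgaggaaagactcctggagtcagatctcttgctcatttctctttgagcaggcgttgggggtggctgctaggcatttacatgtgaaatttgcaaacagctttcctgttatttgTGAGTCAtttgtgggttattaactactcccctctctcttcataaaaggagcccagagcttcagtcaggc

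Both strands of each window were searched for 5 motifs. In CXCL10, a chemokine gene known for its induction by interferon and NF-kB, the response element GAAAGTGAAA began 221 bases before the start and NF-kB matches GGGAAATTCC and GGGACTTCCC began at 177 and 122. TNFRSF1B had the response element as TTTCGCTTTC, 10 bases before the start. IL10 had an AP-1 match TGAGTCA 69 bases before this start, which is the furthest downstream of its annotated starts. The window of its most upstream start (chr1:206772495-206772744) matched none of the 5 motifs. CCR2 had the AP-1 match TGACTCA at 212. The remaining windows matched none of the 5 motifs and are not shown. They include those of HGF and IL6ST, which also had a probe set called between the shRNAs. Over all 35116 promoter windows of that length, the response element occurred in 3.02%, the NF-kB site in 5.21% and the AP-1 site in 6.57%. The STAT site TTCNNNGAA, found in 6.57% of all windows, and the core of the unfolded protein response element TGACGTGG, found in 0.612%, matched none of the 12 member windows (0). A match is a string of letters and says nothing of binding, and these windows leave out more distant sequence.

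**Figure D1:**
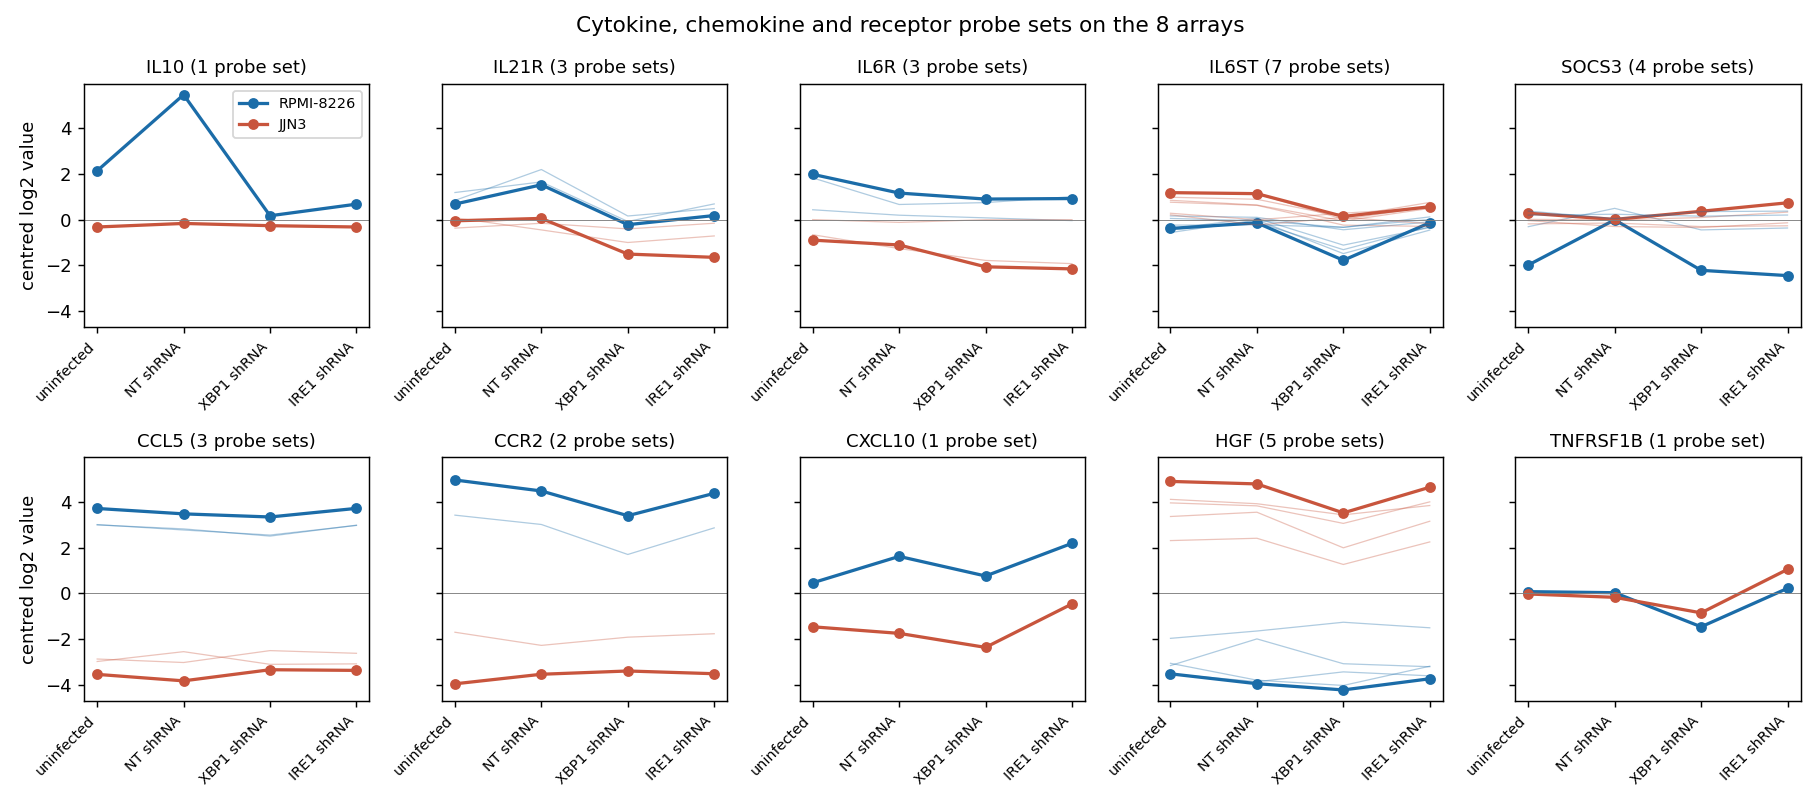
Centred log2 values (y axis) by treatment (x axis) in RPMI-8226 (blue) and JJN3 (red), 1 panel per gene and 1 array per point; thick lines with points show the probe set of highest SD and thin lines the others. CCL5, CCR2 and HGF run far apart between the lines, IL10 reaches 5.45 on the RPMI-8226 NT shRNA array, and the leading IL6ST probe set is lowest with XBP1 shRNA in each line (-1.78 and 0.14).

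The largest differences in the set lay between the 2 lines. RPMI-8226 was higher for the chemokine CCL5 and the chemokine receptor CCR2, JJN3 was higher for HGF, and at each probe set of these genes the gap between the lines exceeded the shifts with treatment within a line. Because such differences may have chosen the genes, the line values are given as a description, without a test. In bulk RNA, fewer cells that express a gene and less of its RNA per cell cannot be told apart.

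CCL5 (1405_i_at) read 3.71, 3.47, 3.34 and 3.71 on the uninfected, NT, XBP1 and IRE1 shRNA arrays of RPMI-8226, an order kept for all such lists, and -3.54, -3.82, -3.34 and -3.36 in JJN3. All 4 RPMI-8226 arrays were high and all 4 JJN3 arrays low, and treatment moved neither line much. The same-treatment difference, JJN3 minus RPMI-8226, was -7.07 ± 0.28 (SD, n = 4 treatments), and the other CCL5 probe sets gave -5.75 and -5.57. Its receptor CCR1 was also lower in JJN3, with mean differences of -1.49 (205099_s_at) and -1.31 at its other probe set, both without overlap between the lines.

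CCR2 (206978_at) read 4.95, 4.47, 3.39 and 4.37 in RPMI-8226 and -3.95, -3.53, -3.39 and -3.51 in JJN3. The lines did not overlap, and the lowest RPMI-8226 array was the one with XBP1 shRNA. The difference was -7.89 ± 0.87 (SD, n = 4 treatments), larger in size than that of 99.97% of all probe sets, and -4.66 ± 0.75 at 207794_at, so the probe sets differ in size but not in direction. The ligand CCL2 (216598_s_at) went the other way, at 0.54 higher in JJN3 with overlapping arrays, and CCL7 (208075_s_at) gave -0.32.

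CXCL10 (204533_at) read 0.46, 1.61, 0.76 and 2.18 in RPMI-8226 and -1.46, -1.75, -2.36 and -0.46 in JJN3. Every RPMI-8226 array lay above every JJN3 array, and in each line the IRE1 shRNA array was the highest. The line difference was -2.76 ± 0.63 (SD, n = 4 treatments). Its receptor CXCR3 (207681_at) was lower in JJN3 too, by a difference of -0.86 (-0.68 at its other probe set).

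HGF (210997_at) read -3.51, -3.95, -4.22 and -3.73 in RPMI-8226 and 4.89, 4.78, 3.51 and 4.63 in JJN3. JJN3, a line known to secrete HGF, was high on all its arrays and lowest with XBP1 shRNA. The line difference was 8.31 ± 0.42 (SD, n = 4 treatments), about 316-fold on base 2 and larger than for 99.98% of all probe sets, and the remaining 4 HGF probe sets gave 7.42, 7.22, 5.86 and 3.65. MET, the receptor, was higher in JJN3 by 1.43 without overlap at 1 of its 4 probe sets (203510_at), while the others gave 0.03, -0.16 and -0.27 with overlap. SPINT2 (210715_s_at), which encodes an inhibitor of the protease that activates HGF, was lower in JJN3 by a difference of -5.99, the largest among the 17 measured genes of HGF activation and MET signalling.

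The chains of the IL-6 receptor ran in opposite directions. IL6R (205945_at), which binds IL-6, read 1.98, 1.16, 0.90 and 0.92 in RPMI-8226 and -0.90, -1.11, -2.06 and -2.15 in JJN3, a difference of -2.79 ± 0.36 (SD, n = 4 treatments). IL6ST (204863_s_at), the signalling chain, read -0.39, -0.14, -1.78 and -0.14 in RPMI-8226 and 1.18, 1.13, 0.14 and 0.56 in JJN3, a difference of 1.36 ± 0.51. Neither gene's arrays overlapped between lines at these probe sets, nor at IL6R 226333_at (-2.46) and IL6ST 212196_at (1.35) and 212195_at (1.23). The lines did overlap at IL6R 217489_s_at (-0.20). They also overlapped at IL6ST 211000_s_at (0.93), 234474_x_at (0.46), 204864_s_at (0.28) and 234967_at (0.03). IL6 (205207_at) itself stayed between -0.35 and 0.34 on all 8 arrays.

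Downstream of these receptors, SOCS3 (227697_at) was higher in JJN3, at 0.28, 0.01, 0.36 and 0.73 against -1.98, -0.01, -2.21 and -2.45 in RPMI-8226. The RPMI-8226 NT shRNA array alone reached the JJN3 level. The mean difference of 2.01 ± 1.38 (SD, n = 4 treatments) was carried by the other 3 treatments, and 2 smaller SOCS3 probe sets ran the other way (-0.49 and -0.42). STAT3 (208991_at, difference 1.28) and the kinase JAK1 (1552611_a_at, 1.38) were higher in JJN3, although 1 further probe set of each hardly differed (0.02 and 0.09), and JAK2 gave 0.53, 0.26 and -0.12 at its 3 probe sets. By contrast, both IL-10 receptor chains were lower in JJN3, IL10RA (204912_at) with a difference of -1.64 and IL10RB (209575_at) with -1.37.

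IL21R and IL10 were higher in RPMI-8226 on average, with wide spread. IL21R gave -1.33 ± 0.46 at 221658_s_at, -1.38 ± 0.52 at 237753_at and -1.19 ± 0.82 at 219971_at (SD, n = 4 treatments), and the arrays of the lines overlapped at the first of these and at 237753_at. IL10 (207433_at) gave -2.38 ± 2.33, because its 4 differences ran from -0.43 with XBP1 shRNA to -5.62 with NT shRNA. TNFRSF1B (203508_at) hardly differed, at 0.28 ± 0.51, with overlap.

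Counted over the set, the lines did not overlap at 21 of 30 probe sets (12 lower and 9 higher in JJN3), against 48.7% of all probe sets (29.8% lower, 18.9% higher). A gap of 1 or more between the lines was found at 12 of 30, in IL6R, CCL5, CCR2 and HGF, against 7.07% of all. The rule may have used this contrast, so nothing is read from these counts.

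**Figure D2:**
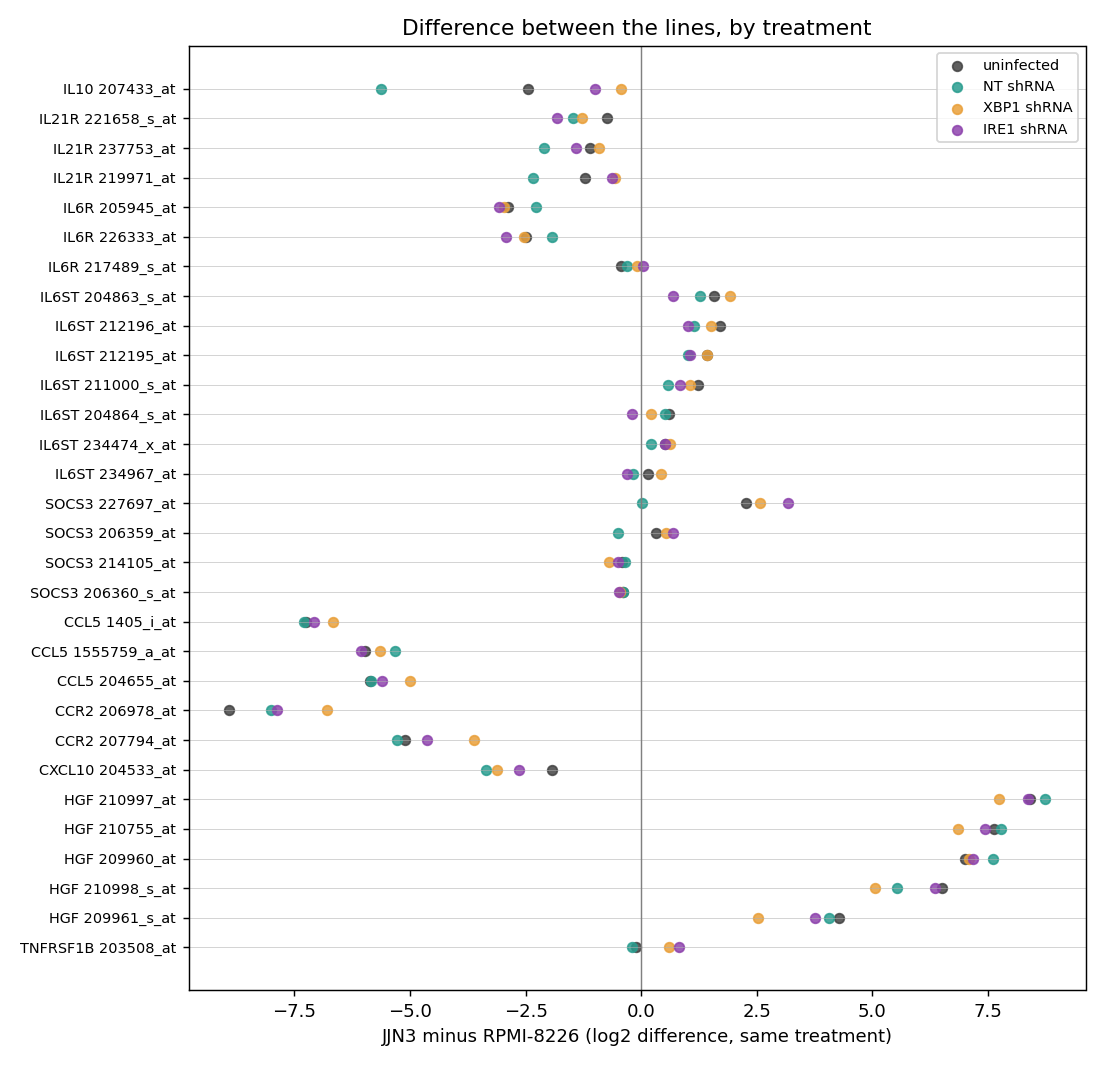
JJN3 minus RPMI-8226 for each of the 30 probe sets (rows), 1 point per treatment, on the log2 scale. HGF lies at the far right (mean 8.31 at 210997_at), CCR2 and CCL5 at the far left, and the points of IL10 spread from -5.62 to -0.43.

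On the arrays labelled XBP1 shRNA, limma over both lines called IL6ST lower than with NT shRNA at 4 of its 7 probe sets. By the same test IL21R was called lower at 1 of its 3. Against NT shRNA, 5 of 30 member probe sets were called lower and 0 higher. Over all probe sets, 1.21% were called (0.679% lower, 0.527% higher). The median difference of the 30 was -0.55, with 24 of them negative, against 0.00067 over all probe sets. Differences with treatment may also have chosen the genes, so nothing is read from these counts or from the treatment counts below.

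IL6ST was called lower at 4 of its 7 probe sets. At 204863_s_at, whose 8 values are given above, the XBP1 shRNA array was the lowest of each line, and the fall was -1.32 ± 0.25 (SE, limma adjusted p = 0.047). At 212196_at the arrays read -0.56, -0.02, -1.48 and -0.46 in RPMI-8226 and 1.15, 1.13, 0.02 and 0.57 in JJN3, again lowest with XBP1 shRNA, and the fall was -1.29 ± 0.19 (adjusted p = 0.023). The falls at 212195_at and 211000_s_at were -0.98 ± 0.16 (adjusted p = 0.034) and -0.93 ± 0.18 (adjusted p = 0.047). Another, 204864_s_at, gave -0.70 ± 0.20 and missed the threshold (adjusted p = 0.145), and 234474_x_at and 234967_at varied little. The poly-A control median was also highest on these XBP1 shRNA arrays (0.43 and 0.19), and its part was not tested. On the IRE1 shRNA arrays, 204863_s_at differed from NT shRNA by -0.28 ± 0.25 (adjusted p = 0.817). The differences there at 212196_at, 212195_at, 211000_s_at and 204864_s_at were -0.50, -0.16, -0.28 and -0.56, and none passed the threshold. The remaining 234474_x_at and 234967_at gave 0.38 and 0.11.

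IL21R (221658_s_at) read 0.68, 1.52, -0.22 and 0.18 in RPMI-8226 and -0.05, 0.05, -1.50 and -1.65 in JJN3. Both shRNA arrays lay below both controls in each line. The fall with XBP1 shRNA was -1.65 ± 0.23 (adjusted p = 0.021), seen in RPMI-8226 (-1.74) and JJN3 (-1.56). The other IL21R probe sets gave -1.14 ± 0.25 (237753_at, adjusted p = 0.070) and -1.14 ± 0.36 (219971_at, adjusted p = 0.189). IL2RG (204116_at), the partner chain of the IL-21 receptor, gave 0.14 ± 0.15.

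These calls sit close to the threshold. Without either NT shRNA array none of the 30 was called (0); without the RPMI-8226 or the JJN3 XBP1 shRNA array 1 was, without either uninfected array 2, and without either IRE1 shRNA array 3. Against the uninfected arrays instead, 9 probe sets of 5 genes were called lower, where 2.1% of all probe sets were called in either direction, and 4 of the 5 above were among them. The added ones were IL6R at 205945_at (-1.12, adjusted p = 0.0316) and 226333_at (-1.10, adjusted p = 0.0409), HGF at 210997_at (-1.04, adjusted p = 0.0477) and 209960_at (-0.93, adjusted p = 0.036), and TNFRSF1B (-1.18, adjusted p = 0.0496). These comparisons share the XBP1 shRNA arrays, and those against the uninfected arrays also include any difference that came with infection. NT shRNA minus uninfected was -0.51 and -0.88 at these IL6R probe sets, -0.27 and -0.43 at HGF and -0.10 at TNFRSF1B. Against NT shRNA, XBP1 shRNA gave -0.61 and -0.22 for IL6R (limma adjusted p = 0.202 and 0.757).

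The XBP1 shRNA array was the lowest of its line in both lines at 11 of 30 probe sets, in 6 genes, against 10.5% of all probe sets, and the highest in both lines at 0, against 11.4%. The IRE1 shRNA array was the lowest in both at 0 of 30, against 6.9%. Such differences may have chosen the genes, so these counts are a description only.

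**Figure D3:**
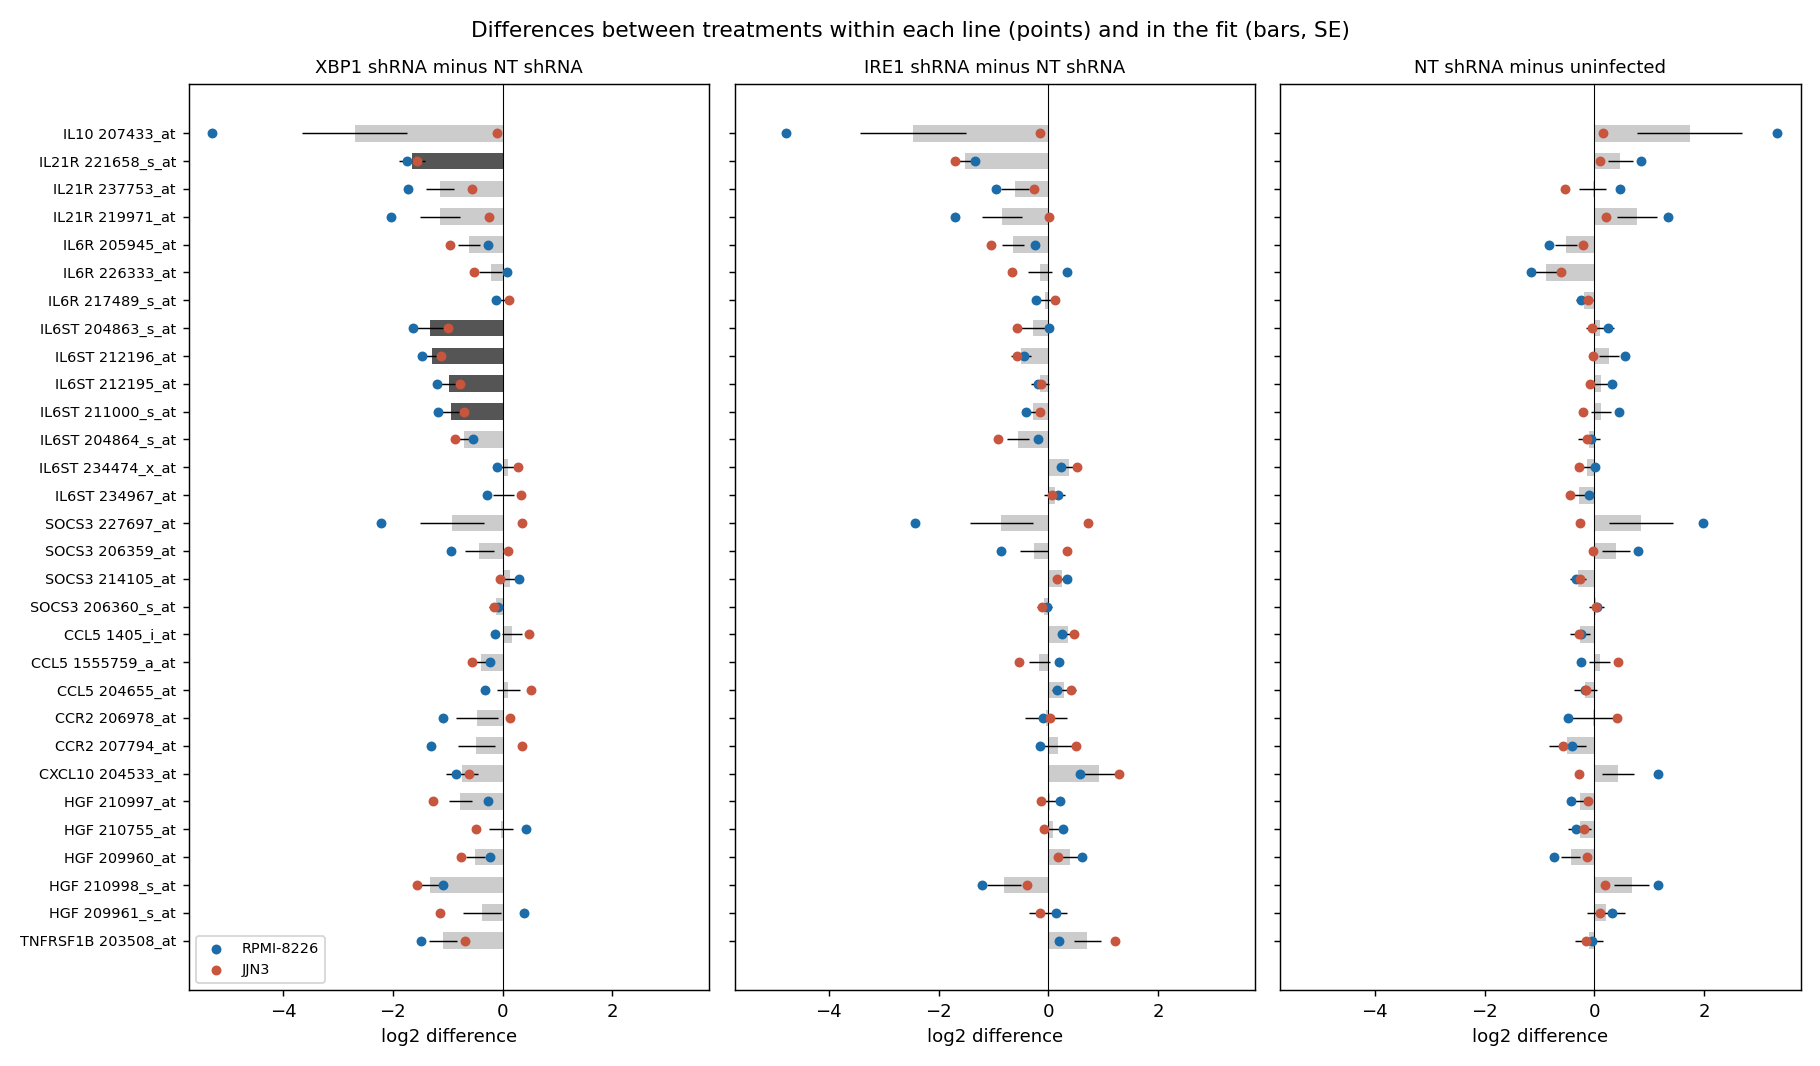
Log2 differences at the 30 probe sets for XBP1 shRNA minus NT shRNA, IRE1 shRNA minus NT shRNA and NT shRNA minus uninfected; points are the lines, bars the fitted difference with its SE, and dark bars have a limma adjusted p under 0.05. The dark bars are 4 IL6ST probe sets and 1 of IL21R with XBP1 shRNA, while the points of IL10 lie far apart (-5.29 and -0.10 with XBP1 shRNA).

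IRE1 shRNA gave no call among the members. Against NT shRNA, limma called 0 of 30 (11 at an unadjusted p under 0.05), where 0.0183% of all probe sets were called (0.0146% lower, 0.00366% higher; 9.46% unadjusted). Against the uninfected arrays it called 0 of 30 (7 at an unadjusted p under 0.05) and 0.00183% of all. IL21R (221658_s_at) came nearest, at -1.52 ± 0.23 (SE, adjusted p = 0.106), with -1.34 in RPMI-8226 and -1.70 in JJN3. CXCL10 gave 0.93 ± 0.29 (adjusted p = 0.329), with 0.57 in RPMI-8226 and 1.29 in JJN3. TNFRSF1B gave 0.71 ± 0.25 (adjusted p = 0.395), with 0.19 in RPMI-8226 and 1.22 in JJN3.

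The XBP1 and IRE1 shRNA arrays differed at CXCL10 and TNFRSF1B when they were compared directly, a comparison added after the data were seen. IRE1 shRNA was higher than XBP1 shRNA at 4 of 30 probe sets and lower at 0, where 1.89% of all were called (0.907% higher, 0.984% lower). TNFRSF1B read 0.07, 0.03, -1.46 and 0.22 in RPMI-8226 and -0.03, -0.17, -0.85 and 1.05 in JJN3. Its XBP1 shRNA array was the lowest and its IRE1 shRNA array the highest in each line, and the difference was 1.79 ± 0.25 (SE, adjusted p = 0.0153). CXCL10, whose values are given above, differed by 1.66 ± 0.29 (adjusted p = 0.029).

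HGF at 209960_at (0.89 ± 0.17, adjusted p = 0.041) and IL6ST at 212195_at (0.82 ± 0.16, adjusted p = 0.044) were the other calls. Leaving out 1 array ended some of these. Without the JJN3 IRE1 shRNA array 0 of the 30 were called, with TNFRSF1B at 1.43 (adjusted p = 0.188) and CXCL10 at 1.59 (adjusted p = 0.268). Without the RPMI-8226 IRE1 shRNA or the JJN3 XBP1 shRNA array 1 was called, and without either uninfected array 2.

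IL10 and SOCS3 stood out on 1 array. IL10 read 2.13, 5.45, 0.17 and 0.67 in RPMI-8226 and -0.32, -0.17, -0.27 and -0.32 in JJN3. In RPMI-8226 the NT shRNA array was the highest of all 8 and the uninfected array next, with both shRNA arrays below, and the JJN3 arrays were flat. SOCS3 rose to -0.01 on the same array from -1.98 without infection, while the XBP1 and IRE1 shRNA arrays read -2.21 and -2.45. IL21R at 219971_at read 0.84, 2.19, 0.16 and 0.48 in RPMI-8226, with the same array on top, and -0.37, -0.16, -0.41 and -0.16 in JJN3. An NT shRNA value at least 1 above the other 3 arrays of RPMI-8226 was found at 4 of 30 member probe sets, against 0.0805% of all probe sets. They were IL10 207433_at, SOCS3 227697_at, IL21R 219971_at and HGF 210998_s_at. The height of that array is a measurement on 1 culture.

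For IL10 and SOCS3, the fitted differences that use that array had wide errors and passed no threshold. IL10 gave 1.74 ± 0.96 for NT shRNA minus uninfected (SE, adjusted p = 0.882), -2.69 ± 0.96 for XBP1 shRNA minus NT shRNA (adjusted p = 0.245) and -2.47 ± 0.96 for IRE1 shRNA minus NT shRNA (adjusted p = 0.453). Without the RPMI-8226 NT shRNA array these became -0.42, -0.53 and -0.30. SOCS3 gave 0.85 ± 0.58 (adjusted p = 0.898), -0.93 ± 0.58 (adjusted p = 0.567) and -0.86 for the same comparisons, and without that array -0.47, 0.40 and 0.47, so its direction turned. Measured against the uninfected array, which does not use it, IL10 in RPMI-8226 was at 25.6% when XBP1 was targeted and at 36.4% when IRE1 was, single values without a replicate.

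**Figure D4:**
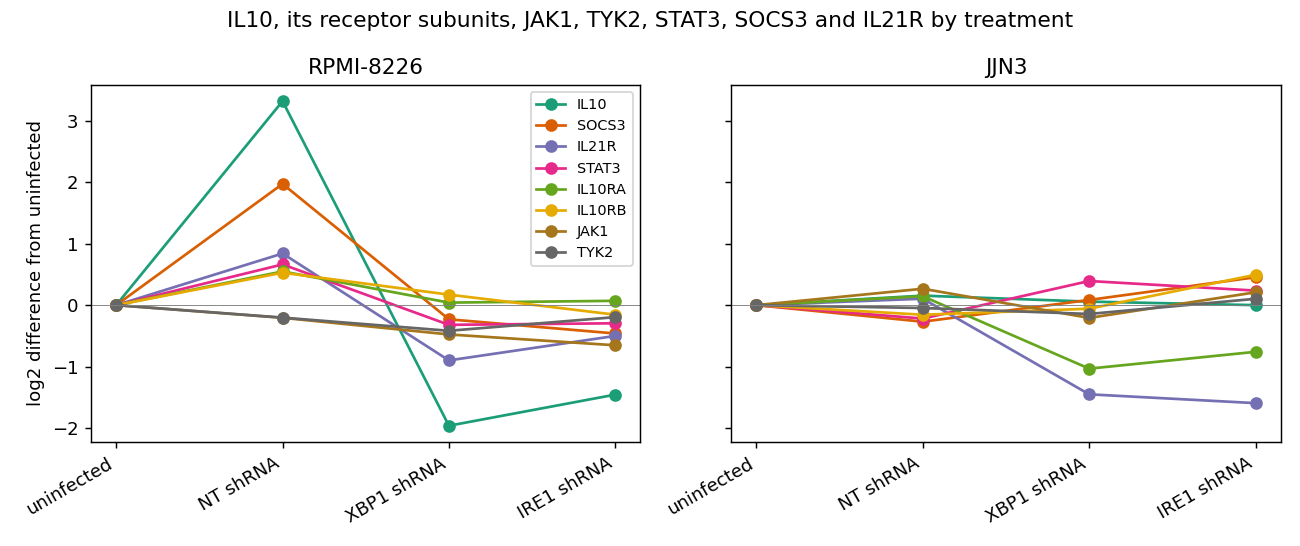
Log2 difference from the uninfected array of the same line for IL10, SOCS3, IL21R (221658_s_at), STAT3, IL10RA, IL10RB, JAK1 and TYK2, RPMI-8226 on the left and JJN3 on the right, 1 array per point. In RPMI-8226 NT shRNA lies above no infection by 3.32 for IL10 and 1.97 for SOCS3 but below it for JAK1 (-0.21) and TYK2 (-0.20), whereas in JJN3 IL10 stays within 0.16 of the uninfected array.

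Of the 5 genes that carry the IL-10 signal to the nucleus, IL10RA, IL10RB and STAT3 were highest on that array in RPMI-8226 at the probe set followed, and the receptor kinases JAK1 and TYK2 were not. STAT3 (208991_at) read -0.82, -0.15, -1.14 and -1.11 in RPMI-8226 and 0.37, 0.15, 0.76 and 0.61 in JJN3, where the NT shRNA array was the lowest. IL10RA read 0.46, 1.01, 0.50 and 0.53 in RPMI-8226 and -0.60, -0.46, -1.64 and -1.36 in JJN3, and IL10RB 0.48, 1.01, 0.66 and 0.33 in RPMI-8226. JAK1 (1552611_a_at) read -0.38, -0.59, -0.86 and -1.04 in RPMI-8226, and TYK2 (205546_s_at) 0.18, -0.02, -0.24 and -0.01, both highest without infection. Over all 12 probe sets of the 5 genes the NT shRNA array was the highest of RPMI-8226 at 6, and over the members at 11 of 30, against 27.1% of all probe sets.

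NT shRNA against no infection gave no call at all: 0 of 30 members and 0% of all probe sets by limma (3 members and 5.57% of all at an unadjusted p under 0.05). IL6R had the largest fitted change relative to its error, -0.88 ± 0.21 at 226333_at (adjusted p = 0.873). IL6R at 205945_at was lower on every infected array than on the uninfected array of its line, and both shRNA arrays lay below both controls in each line. With both shRNAs pooled against both controls, limma again called 0 of 30 and 0% of all probe sets (10 members and 9.29% of all at an unadjusted p under 0.05; lowest adjusted p among the members 0.147).

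Both shRNA arrays lay below both controls in both lines at 4 of 30 probe sets (IL21R 221658_s_at and 237753_at, IL6R 205945_at and IL6ST 204864_s_at), against 4.1% of all, and above them at 0, against 4.36%. In RPMI-8226 alone 11 lay below, against 14.5% of all, and 1 above, against 18.7%. In JJN3 alone 15 lay below, against 20.3%, and 6 above, against 19.6%. Whether the change with silencing differed between lines was tested as an interaction, which limma called at 0 of 30 members and 0% of all probe sets (5 members and 5.23% of all at an unadjusted p under 0.05).

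Several further differences between XBP1 shRNA and NT shRNA passed no threshold. CCL5 (1405_i_at) differed by 0.17 ± 0.18 between XBP1 shRNA and NT shRNA (SE, adjusted p = 0.764) and CCR2 (206978_at) by -0.47 ± 0.38 (adjusted p = 0.683). HGF in JJN3 was lower with XBP1 shRNA at 210997_at, and the fitted difference from NT shRNA was -0.77 ± 0.22 (adjusted p = 0.140). At 210998_s_at the fitted difference was -1.32 ± 0.31 (adjusted p = 0.0847). In RPMI-8226 that probe set gave -1.08 against NT shRNA but 0.08 against the uninfected array. The remaining HGF probe sets, 209960_at, 209961_s_at and 210755_at, gave fitted differences of -0.50, -0.38 and -0.03. CXCL10 and TNFRSF1B gave -0.73 ± 0.29 (adjusted p = 0.303) and -1.08 ± 0.25 (adjusted p = 0.079) against NT shRNA.

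Around these members, 221 of 239 listed genes with a related role were measured by 466 probe sets. Between the lines 92 probe sets were higher and 175 lower in JJN3, 57.3%, against 56% of all probe sets (22.8% higher, 33.2% lower), with a median of -0.20 against -0.14, so the lists as a whole lay near the background. The 87 probe sets of TNF superfamily ligands and receptors had 7 higher and 50 lower in JJN3 (65.5%, median -0.40), while the 85 of JAK-STAT signalling had 39 higher and 14 lower (62.4%, median 0.16). The 50 of chemokines had 6 higher and 21 lower (54%), the 32 of chemokine receptors 4 and 14 (56.2%), the 60 of interleukins and other cytokines 4 and 22 (43.3%), the 97 of cytokine receptors 20 and 37 (58.8%) and the 55 of HGF activation and MET signalling 12 and 17 (52.7%).

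The named genes of these lists, by the largest difference each way, had limma adjusted p from 2.52e-09 to 0.00546. The replicates in this fit are the differently treated arrays of each line, so p measures only the spread between those arrays. Higher in JJN3 were the kinase JAK3 (3.79), the transcription factor STAT4 (3.47), the receptors IL17RB (3.17), IL13RA1 (2.26), TNFRSF11A (4.39) and FAS (2.57), the cytokines IL15 (2.46) and IL32 (1.21), the chemokines CCL20 (2.42) and CCL28 (0.92), their receptors CCR10 (1.71) and CXCR4 (0.70), and the MET-related CD44 (1.82) and CBL (1.60). Lower in JJN3 were the fractalkine receptor CX3CR1 (-5.50), the TNF family ligand LTB (-4.92), TNFRSF25 (-3.68), the chemokines CXCL12 (-3.60) and CCL1 (-3.18), IL23A (-3.08), IL16 (-1.81), the inhibitors SOCS2 (-2.50) and PTPN6 (-1.52), and PLAUR (-1.74).

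**Figure D5:**
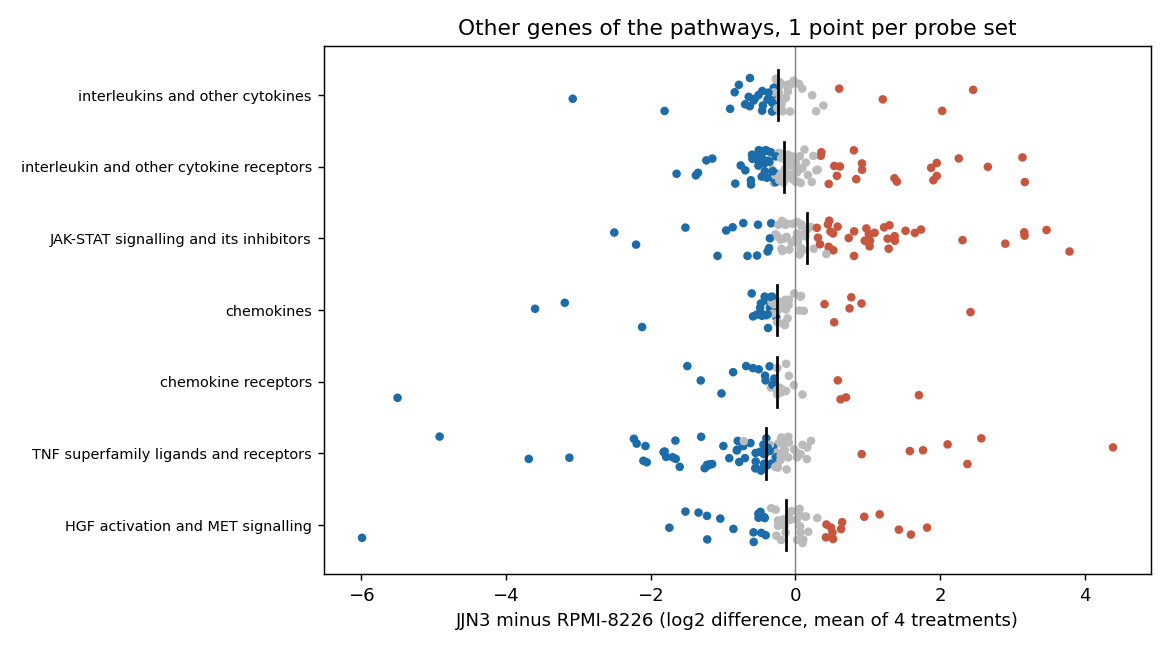
Difference JJN3 minus RPMI-8226 (log2, mean of 4 treatments) for each probe set of the 7 role lists; red and blue points are called higher and lower in JJN3 (limma adjusted p under 0.05), grey points are not called, and black bars are list medians. Most TNF superfamily points lie left of 0 (50 of 87 called lower, median -0.40), and JAK-STAT points reach far to the right (39 of 85 called higher, median 0.16).

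With treatment few probe sets of the same lists were called. XBP1 shRNA against NT shRNA called 1 of 466 (0.215%, against 1.21% of all; 51 at an unadjusted p under 0.05, against 13.7% of all), IFNGR2 (201642_at), a chain of the interferon-gamma receptor, which rose by 0.96 (adjusted p = 0.0419). IRE1 shRNA against NT shRNA, and NT shRNA against no infection, called 0 each by limma (45 and 31 at an unadjusted p under 0.05, against 9.46% and 5.57% of all). Between the shRNAs, 3 of 466 were called (0.644%, against 1.89% of all). IL27RA was higher with IRE1 shRNA (0.93, adjusted p = 0.0332), and JAK3 (-1.24, adjusted p = 0.0207) and SOCS7 (-1.14, adjusted p = 0.0254) were lower.

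The genes whose values ran most like each member's over the 8 arrays, after centring within each line, were TIMM29 and PTP4A3 for IL10 (r = 0.991 and 0.989), DESI1 and LURAP1L for IL21R (0.991 and 0.991), UFM1 and ADCY10P1 for IL6R (0.994 and 0.988) and CLEC2D and ZFR2 for IL6ST (0.991 and 0.987). They were LCNL1 and H6PD for SOCS3, ADGRV1 and ECPAS for CCL5, SPAG9 and PURPL for CCR2, GET4 and GHSR for CXCL10, SKP2 and NLE1 for HGF, and TIA1 and NFIC for TNFRSF1B. Between 74 and 491 probe sets reached r of 0.9 with a member, so single names are descriptions over 8 points that share their arrays.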

How the data were processed

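Expression was measured on 8 arrays, 1 per cell line and treatment. Per the submitters' processing notes the authors processed the signals with RMA (version not stated), and the deposited table was read as log2 units, the scale of RMA output; neither log base nor centring is stated. All 54675 rows were centred at a median of 0 (tolerance 1e-06), so signal over background is unknown, and precision is limited by the few arrays. Among 28 pairs of arrays, 0 were identical.

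Every probe set was fitted in limma 3.58.1 (R 4.3.3; lmFit, eBayes, two-sided, Benjamini-Hochberg over all probe sets, threshold 0.05), with treatment and cell line as a block, since arrays of a treatment are paired by line. Silencing pooled, its interaction with line, and JJN3 against RPMI-8226 (treatment as block) used all 8 arrays. IRE1 shRNA against XBP1 shRNA was added after the data were seen. The script was tested on simulated data. A single symbol named 41097 probe sets; 1801 had several and 11777 were not listed.

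The members, gene lists, partners and tests were chosen with earlier results of these data known. Members are shown by the probe set of highest SD. Named besides are partner genes, the 2 largest differences each way between lines per role list, genes called with treatment (up to 4 per list) and the 2 genes most correlated with each member. Some partner genes are not reported here. Alternatives were leaving out each array, other scalings, 1 probe set per gene, an SD filter, robust eBayes, no block and the uninfected control.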

Additional observations from a re-analysis of the deposited data

Results flagged for a closer look

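Within the 4 arrays of a line, 1 array lay far from the other 3 in 7 of 60 groups, where chance gives about 1 in 20; the 4 arrays are different treatments. In RPMI-8226 these were the NT shRNA array for SOCS3 206359_at (0.49, others -0.45 to -0.31), SOCS3 214105_at (0.042, others 0.35 to 0.37) and HGF 210998_s_at (-1.99, others -3.20 to -3.07), and the XBP1 shRNA array for IL6ST 204863_s_at (-1.78, others -0.39 to -0.14) and TNFRSF1B (-1.46, others 0.03 to 0.22). In JJN3 they were the NT shRNA array for IL6R 217489_s_at (-0.12, others -0.0045 to 0.0015) and the XBP1 shRNA array for HGF 209961_s_at (1.26, others 2.25 to 2.41).

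At 4 probe sets both shRNA arrays lay on one side of both controls in RPMI-8226 and on the opposite side in JJN3. The change with silencing in JJN3 minus that in RPMI-8226 was 1.74 for SOCS3 227697_at, 0.71 for SOCS3 206359_at, 1.12 for CCR2 206978_at and -1.02 for HGF 209961_s_at, and none of these passed the interaction test over all probe sets.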

How the results depend on the processing

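Member calls for XBP1 shRNA minus NT shRNA (5) ran from 0 to 3 with 1 array left out, and were 1 after quantile normalisation, 3 with array medians subtracted, 2 with 1 probe set per gene, 0 with no replicate block and 9 against the uninfected arrays. For IRE1 shRNA minus XBP1 shRNA (4) they ran from 0 to 3, and were 2 after quantile normalisation, 2 with 1 probe set per gene and 0 with no replicate block. For pooled silencing (0) they ran from 0 to 1 and were 1 after quantile normalisation; for the interaction (0) from 0 to 1. With 1 probe set per gene, the 267 of 466 role list calls between lines became 148 of 221. The 21 of 30 member probe sets without overlap became 8 of 10. The 2 member calls given above for that setting in each shRNA comparison are also of 10 probe sets. Over all probe sets, the 659 calls for XBP1 shRNA minus NT shRNA became 0 without the RPMI-8226 and 6 without the JJN3 NT shRNA array, 343 after quantile normalisation, 0 with no block and 1149 against the uninfected arrays.

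Directions turned with 1 array left out for the following; the cause was not tested. XBP1 shRNA minus NT shRNA ran from -2.25 to 0.40 (SOCS3), -0.092 to 0.44 (CCL5) and -1.21 to 0.27 (CCR2). IRE1 shRNA minus NT shRNA ran from -0.73 to 0.16 (IL6ST), -2.18 to 0.47 (SOCS3), -0.12 to 0.036 (CCR2) and -0.24 to 0.31 (HGF). NT shRNA minus uninfected ran from -0.42 to 3.90 (IL10), -0.034 to 0.23 (IL6ST), -0.47 to 2.18 (SOCS3), -0.70 to 0.64 (CCR2), -0.13 to 0.99 (CXCL10), -0.55 to 0.0091 (HGF) and -0.42 to 0.23 (TNFRSF1B). IRE1 shRNA minus XBP1 shRNA ran from -1.07 to 1.52 (IL10), -0.20 to 0.46 (IL21R), -0.22 to 0.15 (IL6R), -0.71 to 0.85 (SOCS3), -0.093 to 0.44 (CCL5) and -0.31 to 1.17 (CCR2). Quantile normalisation turned CCR2 (0.0071, IRE1 shRNA minus NT shRNA), IL6R (0.045) and SOCS3 (-0.037, both IRE1 shRNA minus XBP1 shRNA). The uninfected control turned CCL5 (-0.084, XBP1 shRNA) and HGF (-0.23, IRE1 shRNA).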

Other observations

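On the RPMI-8226 NT shRNA array, 44 probe sets lay at least 1 above the other 3 arrays of that line; 40 had 1 symbol, from 35 genes. Beside IL10 and SOCS3, the largest heights above the next array were those of BCL6 (203140_at, 3.70), a transcriptional repressor of germinal centre B cells, SPP1 (209875_s_at, 3.38), which encodes osteopontin, and PARP9 (223220_s_at, 2.34). The glucose transporter family member SLC2A5 was there with 3 probe sets, and the chemokine gene CCL1 (1.32) and the receptor gene IL13RA1 (1.34 at 201887_at) were there too. These genes were picked for their height on 1 array.

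Other arrays had such probe sets as well: 67 on the XBP1 shRNA array and 22 on the uninfected array of RPMI-8226, and in JJN3 243 with XBP1 shRNA, 85 with IRE1 shRNA, 4 with NT shRNA and 3 without infection.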
